A study of Mus musculus with 4 samples.

Results

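Inflammatory monocytes, the Ly6c2- and Chil3-expressing cells that the blood delivers to inflamed tissue, were examined among CD45-positive cells of B16-F10 tumours, a transplantable mouse melanoma. The cells were chosen by raw counts of unique molecular identifiers (UMIs), of which each stands for one captured transcript. A cell needed at least 1 UMI of Csf1r, at least 3 of Ly6c2 and Chil3 together, and at most 10 of the complement genes C1qa, C1qb and C1qc. It could hold fewer than 20 UMIs of Arg1, Spp1 and Mmp12, fewer than 3 of Cd300e and Lipg, fewer than 3 of Folr2 and Cbr2, at most 1 of Cd3d, Cd3e and Cd3g, and fewer than 10 of Mlana and Dct. It also had to show 500 or more genes and no more than 10% of UMIs from mitochondrial genes. These limits selected 387 of 8677 kept cells. The levels of these 18 genes chose the cells, so they are given below as a description with no test. Of 908 kept cells that met the Csf1r and Ly6c2/Chil3 limits, 409 exceeded the C1q limit, 105 the Arg1, Spp1 and Mmp12 limit, 93 the Cd3 limit, 78 the Folr2 and Cbr2 limit, 17 the Cd300e and Lipg limit and 6 the Mlana and Dct limit, and a cell could exceed several.

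The tumours were Adar1-null B16-F10 (libraries S1 and S2) or control B16-F10 (libraries S3 and S4). In both groups a 2-million-cell dose was placed with matrigel in C57BL/6 mice, and tumours were taken on day 14, minced and digested for 10 min at 37 °C. A density gradient was followed by magnetic sorting of CD45-positive cells, and droplet libraries were made with the 10x 3′ v2 kit. Adar, which encodes the RNA-editing enzyme Adar1, is the altered gene, and the label places the alteration in the tumour line. The monocytes were taken to come from the mice, for which no genotype beyond the strain is labelled. How the null line was made, whether it is a single clone, and the age and sex of the mice are not stated in any source used here, and no treatment is labelled. The series names 2 tumours per group. Separate animals are nowhere mentioned, and the p-values therefore describe the spread between these 4 libraries alone.

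Ly6c2-expressing monocytes leave the bone marrow through the chemokine receptor Ccr2, enter inflamed tissue and tumours, and there become macrophages or dendritic-like cells, losing Ly6c2 and gaining C1q and MHC class II. Interferon alpha and beta act on them through the receptor chains Ifnar1 and Ifnar2 and through a complex that contains Stat2 and Irf9 and binds the interferon-stimulated response element in the promoters of its targets. Adar1 edits double-stranded RNA, and unedited double-stranded RNA is a ligand of the sensors Ifih1 and Eif2ak2.

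The Adar1-null libraries held 80 and 146 selected cells, and the controls 79 and 82. The summed depth was 409618 and 822634 UMIs in S1 and S2, against 477175 and 484927 UMIs in S3 and S4. A selected cell had a median of 5244 UMIs and 1788 genes. Levels are given as counts-per-million values (CPM) of the UMIs summed over the selected cells of a library. At these depths the lowest levels of Oas1g, Nr1h3, Cxcl1, Cxcl3, Cd209a, Stat2 and Treml4 given below are a few UMIs or fewer in a library. By Scrublet, which scores doublets, 1 selected cell and 108 of all kept cells exceeded a score of 0.1. Of the 76 barcodes that occurred in more than 1 library, 8 belonged to selected cells, and 2 of these were shared with another selected cell. S4 stood apart from the other libraries, as the values below show, so the medians of gene lists are also given without it. Adar itself had 7 and 16 UMIs in S1 and S2, against 17 and 5 UMIs in S3 and S4, too few to be tested. These 3′ counts in host cells do not check the edit of the tumour line.

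The 6 genes given as markers of these cells were present in every library. Plac8, a small cysteine-rich protein of myeloid cells, had 7251 and 6766 CPM in S1 and S2, against 6174 and 4819 CPM in S3 and S4. Ccr2 lay between 594 and 676 CPM in the Adar1-null libraries and between 536 and 706 CPM in the controls. Il1b, the inflammatory cytokine interleukin-1 beta, had 1934 and 2367 CPM in S1 and S2, against 1827 and 2470.5 CPM in S3 and S4. Il1b and Ccr2 overlapped between the groups. Hp, which encodes the haemoglobin-binding protein haptoglobin, had 215 and 242 CPM in S1 and S2, against 308 and 685 CPM in S3 and S4, and both Adar1-null values lay below both control values. At a common depth of 3900 UMIs per cell, 82.7% of selected cells held an Il1b UMI, 80.1% a Ccr2 UMI, 51.4% a Chil3 UMI and 40.8% an Hp UMI. In T cells with no Csf1r UMI, which should lack these transcripts and so show the level of free RNA, the shares were 9.36%, 19.0%, 0.749% and 0.749% at the same depth. The unthinned shares were 85.3%, 87.1%, 54.8% and 45.5% in selected cells and 15.1%, 28.4%, 1.87% and 1.87% in T cells, at median depths of 5244 and 8718 UMIs. T cells also express Ly6c2 and some Ccr2, so these 2 are a poor guide to free RNA.

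**Figure D1:**
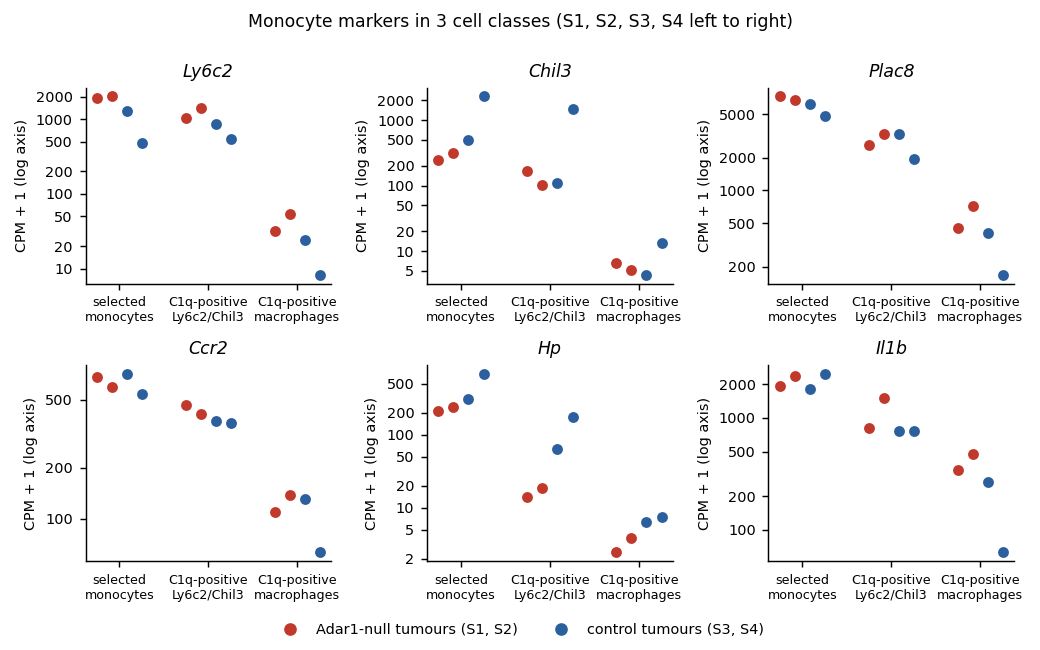
Levels of 6 monocyte markers (CPM + 1, log axis) in the selected monocytes, in cells that meet the same limits but exceed 10 C1q UMIs, and in C1q-positive macrophages with fewer than 3 Ly6c2 and Chil3 UMIs. Each point is a library, S1 and S2 (Adar1-null, red) left of S3 and S4 (control, blue). Ly6c2 and Chil3 define the classes. Plac8, Ccr2, Hp and Il1b are highest in the selected cells, and S4 has the highest Chil3 and Hp and the lowest Ly6c2 among them.

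The 2 transcripts that selected the cells were not balanced alike in the libraries. Ly6c2, which encodes the surface protein Ly6C2, had 1916 and 2011 CPM in S1 and S2, against 1280.5 and 476 CPM in S3 and S4. Chil3, a secreted chitinase-like protein also known as Ym1, had 242 and 310.0 CPM in S1 and S2, against 486 and 2289 CPM in S3 and S4. More Chil3 than Ly6c2 UMIs were found in 8 of 80 and 9 of 146 cells in S1 and S2, and in 11 of 79 and 64 of 82 cells in S3 and S4. S4 was thus a library of Chil3-high cells and the other 3 of Ly6c2-high cells. No Ly6c2 UMI at all was found in 31.7% of S4 cells, against 1.27% to 2.5% in the other libraries. Chil3 UMIs were absent from 57.5% and 55.5% of cells in S1 and S2, and from 46.8% and 13.4% in S3 and S4. Reads of Ly6c2 and of its close paralogue Ly6c1 can be hard to separate, and the same holds for Chil3 and Chil4. The median of selected cells was 7.5 and 8 Ly6c2 UMIs in S1 and S2, against 6 and 1 in S3 and S4.

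**Figure D2:**
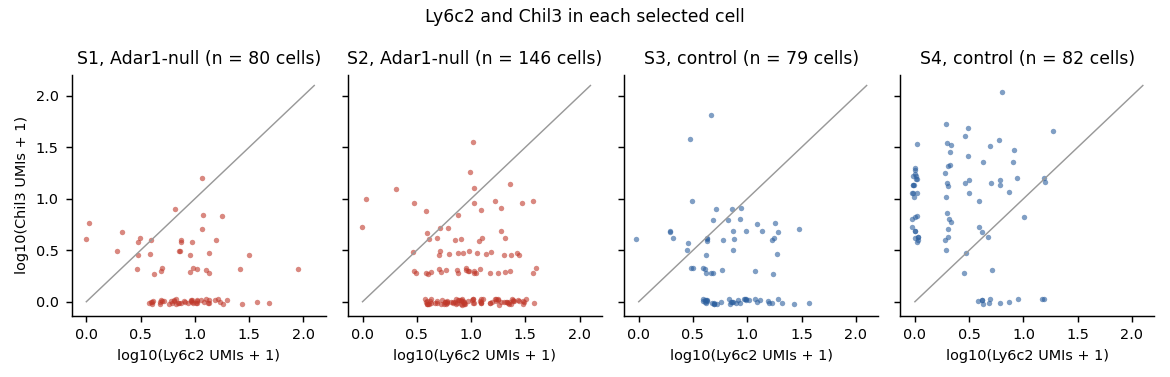
Ly6c2 UMIs (horizontal) and Chil3 UMIs (vertical) of each selected cell, as log10 of the count + 1 with a small random offset, 1 panel per library. The grey line marks equal counts. In S1, S2 and S3 most cells lie below the line, and in S4 64 of 82 lie above it.

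Cells on either side of the limits were described without a test. The 77 selected cells with 3 or 4 UMIs of Ly6c2 and Chil3 together had 5175 CPM of Plac8, 460 CPM of Ccr2, 193 CPM of Hp and 1909 CPM of Il1b. The 101 cells just outside, with 1 or 2 such UMIs, had 3453, 409.8, 100.03 and 1588 CPM of the same genes. The 22 selected cells with 6 to 10 C1q UMIs had 5424 CPM of Plac8, and the 20 just outside, with 11 to 15, had 5206 CPM. Plac8 and Hp were lower outside the Ly6c2/Chil3 limit than inside it in each library. At the C1q limit, with 4 to 9 cells a library on either side, the libraries went opposite ways: Hp had 38.5 and 0 CPM inside in S1 and S2, against 41.7 and 752 CPM inside in S3 and S4, and 149.8 and 86.9 CPM outside in S1 and S2, against 397 and 29.7 CPM outside in S3 and S4.

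The share of monocytes was compared as a measure of how many such cells each suspension held. Monocytes made up 4.06% (95% exact binomial interval 3.23 to 5.02) and 7.46% (6.34 to 8.71) of kept cells in S1 and S2, against 4.03% (3.20 to 4.99) and 2.94% (2.35 to 3.64) in S3 and S4. S1 and S3 were nearly equal, S2 was the highest and S4 the lowest. The mean was 5.76 ± 2.41% in Adar1-null and 3.48 ± 0.766% in control libraries (SD, n = 2 each), with an exact two-sided permutation p of 0.333, the smallest that 2 against 2 libraries allow. Of Csf1r-positive cells they made up 10.4% and 21.9% in S1 and S2, against 8.64% and 5.22% in S3 and S4. The mean was 16.1 ± 8.08% in Adar1-null and 6.93 ± 2.42% in control libraries (SD, n = 2 each, exact permutation p = 0.333). The difference in the monocyte share of all kept cells was 2.27 percentage points, 0.572 points without S2 and 3.98 points without S1. That in the monocyte share of Csf1r-positive cells was 9.21 points, 3.50 points without S2 and 14.9 points without S1. Intervals cover counting error only, and shares describe the selected suspension, not the tumour.

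No gene passed the test between the groups. Gene by gene, UMIs summed per library were compared with edgeR's quasi-likelihood test, and 0 of 4721 genes tested (0% called) reached an adjusted p of 0.05 with Benjamini-Hochberg adjustment. The lowest adjusted p was 0.529, for Ifit2. At an unadjusted p under 0.05, 122 genes were higher and 98 lower by edgeR, 220 in all, against 236 expected with no difference. DESeq2 called 0 of 12254 genes, with 24 higher and 36 lower at that unadjusted level, 60 in all, against 613 expected. Both Adar1-null libraries lay above both control libraries for 849 genes (18.0%) and below them for 716 (15.2%), and these shares are the background for every count of such separated genes below. The median log2 change over all genes tested was -0.01, and 48.8% of the changes were positive. Values below are therefore given as levels and as log2 changes of Adar1-null over control libraries ± SE, and none of them passed.

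The number of calls depended on which control library was left out. Without S3, 177 of 5262 genes were higher (3.36%) and 126 lower (2.39%). Without S4, 10 of 5211 passed (0.192%), without S1 or S2 none did, and with no filter on low counts 36 of 12254 passed (0.294%). Only 5 genes passed both without S3 and without S4. Ifit2, Cd209a and Dmkn were higher in both fits and Cxcl3 lower in both, while Ccl5 turned from higher without S3 to lower without S4. In a fit without 1 library, the lone library of its group is assumed to vary like those of the other group.

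Most interferon-stimulated genes had a positive log2 change, and none passed the test. Of 64 genes on the type I interferon list, 59 passed the filter on low counts, which keeps genes by their count in any group. Of the 59, 55 had a positive log2 change, 31 were separated upward against 18.0% of all genes, and 2 downward against 15.2%. Their median log2 change was 0.69, against -0.01 for all genes tested. By edgeR, 17 of the 59 had an unadjusted p under 0.05, against 220 of all 4721 genes tested. The list was chosen with results of these data known, so its direction is not independent evidence.

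Ifit2, an interferon-induced protein that binds RNA and restrains viral translation, lies on chromosome 19 at 34550694 to 34576419 (GRCm38). It had 92.8 and 145 CPM in S1 and S2, against 31.4 and 14.4 CPM in S3 and S4 (2.38 ± 0.39). Its values did not overlap, and it was found in 18.8% and 30.1% of cells in S1 and S2, against 12.7% and 6.10% in S3 and S4. Oas1a, an enzyme that makes the second messenger 2′-5′ oligoadenylate when it meets double-stranded RNA, lies on chromosome 5 at 120896256 to 120907521 (GRCm38). Oas1a had 109.9 and 117 CPM in S1 and S2, against 50.3 and 33.0 CPM in S3 and S4 (1.42 ± 0.29). Its close copy Oas1g, whose reads may be shared with Oas1a, had 24.4 and 43.8 CPM in S1 and S2, against 12.6 and 4.12 CPM in S3 and S4 (2.07 ± 0.56). Slfn4, a Schlafen-family protein of myeloid cells, had 83.0 and 76.6 CPM in S1 and S2, against 33.5 and 16.5 CPM in S3 and S4 (1.64 ± 0.36). In Ifit2, Oas1a, Oas1g and Slfn4 both control libraries were low, and the control levels of Oas1g rest on few UMIs. In cells outside the selection limits, described with no test, Ifit2 was highest in S3. With 1 or 2 Ly6c2/Chil3 UMIs, S1 and S2 had 17.3 and 77.2 CPM, and S3 and S4 108 and 52.6 CPM. With 11 to 30 C1q UMIs, S1 and S2 had 33.4 and 99.8 CPM, and S3 and S4 162 and 0 CPM. Above 30 C1q UMIs, S1 and S2 had 70.6 and 76.4 CPM, and S3 and S4 86.0 and 7.72 CPM.

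The exonuclease Isg20 had 132 and 126 CPM in S1 and S2, against 73.3 and 59.8 CPM in S3 and S4 (0.93 ± 0.25). Mx1, a GTPase that blocks viruses, had 41.5 and 77.8 CPM in S1 and S2, against 29.3 and 14.4 CPM in S3 and S4 (1.49 ± 0.43). Usp18, which removes Isg15 from proteins and damps interferon signalling, had 83.0 and 120.3 CPM in S1 and S2, against 62.9 and 37.1 CPM in S3 and S4 (1.03 ± 0.33). The groups did not overlap in these 3 genes. In Mx1 and Usp18, S1 lay nearer to S3 than to S2, the other Adar1-null library.

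In the more abundant members S4 was the library that differed most. Isg15, a ubiquitin-like modifier, had 977 and 1448 CPM in S1 and S2, against 876 and 303 CPM in S3 and S4 (1.03 ± 0.55). Irf7, which amplifies interferon production, had 754 and 1021 CPM in S1 and S2, against 622 and 177 CPM in S3 and S4 (1.14 ± 0.63). Ifi27l2a, an abundant interferon-induced transcript, had 2432 and 2766 CPM in S1 and S2, against 2236 and 456 CPM in S3 and S4 (0.94 ± 0.85). In each of them S3 lay nearer to S1 than to S4, the lowest library. Ifit3 overlapped between the groups, and Slfn5 ran the other way, with 56.1 and 62.0 CPM in S1 and S2, against 83.8 and 80.4 CPM in S3 and S4 (-0.48 ± 0.26).

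Over the 59 genes, each centred on its mean of the 4 libraries, the median log2 level was 0.23 and 0.55 in the Adar1-null libraries S1 and S2, against 0.15 and -0.92 in the controls S3 and S4. S2 was thus the highest and S4 the lowest, and S1 lay nearer to S3 than to S2. Without S4 the median log2 change of the list was 0.24, with 1 member called (Ifit2). Without S3 it was 1.45, with 44 of 60 members called higher and 0 lower, against 3.36% of all genes. The list's share of a cell's UMIs had a median of 1.28% and 1.71% in S1 and S2, against 1.26% and 0.534% in S3 and S4. The middle 50% of cells lay between 0.383% and 0.828% in S4 and between 0.917% and 1.75% in S3, so the S4 cells were low as a population and not through a few cells.

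**Figure D3:**
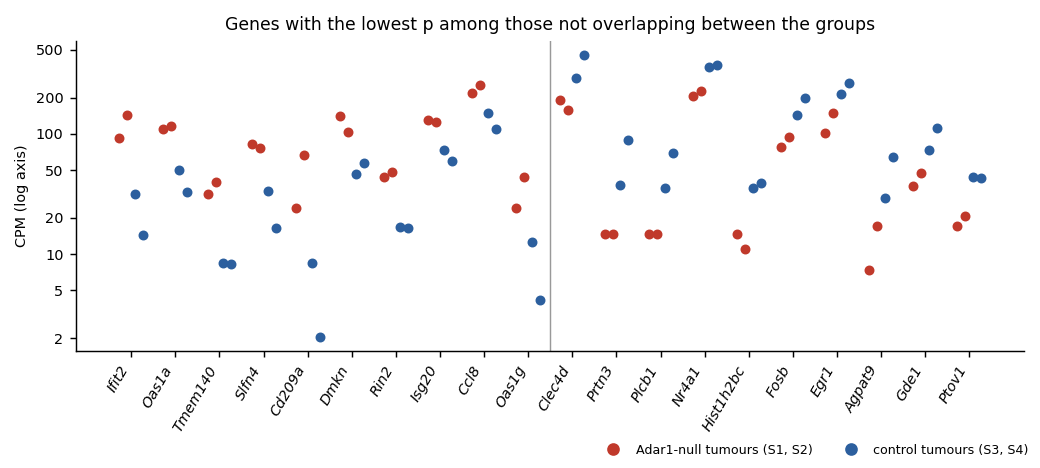
CPM (log axis) of the 10 genes with the lowest p in each direction among genes whose groups did not overlap, higher on the left and lower on the right of the grey line. Each point is a library, S1 and S2 (Adar1-null, red) left of S3 and S4 (control, blue). Ifit2, Oas1a, Slfn4, Isg20 and Oas1g on the left belong to the type I interferon list. None of the 20 passed the test across all genes.

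The low interferon level of S4 was found in cells with either selecting transcript on top, and in C1q-positive cells as well. The sums that follow cover the 59 tested members of the list. In S4 they summed to 6654 CPM in the 16 cells with more Ly6c2 than Chil3 and to 6304 CPM in the 64 cells with more Chil3. In S1 and S2 cells with more Ly6c2 summed to 15133 and 18394 CPM, and in S3 to 14319 CPM. Those with more Chil3 summed to 13996 and 16541 CPM in S1 and S2 and to 14376 CPM in S3. In cells outside the C1q limit, with 11 to 30 C1q UMIs, the list summed to 14172 and 18461 CPM in S1 and S2, against 17778 and 6268 CPM in S3 and S4. With more than 30 it summed to 12400 and 15855 CPM, against 11690 and 6828 CPM. In T cells, Isg15, Ifit1, Ifit2, Ifit3, Irf7, Bst2 and Ifi27l2a were lowest in S4, while Stat2 and Oas3 were lowest in S3. T cells of S4 had 29.6 CPM of Isg15, against 64.3 to 142 CPM in the other libraries. Of Ifi27l2a they had 181 CPM, against 532 to 1329 CPM. With only the Ly6c2-dominant cells in every library, a choice made after the data were seen, the median log2 change of the list was 0.47, and 51 of 59 were positive.

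Promoters of the list's members often held a match to the interferon-stimulated response element. A 300-base stretch from 250 bases before to 50 after the start was searched on both strands for GAAANNGAAA, where N is any base. The stretches were taken from RefSeq, build GRCm38.p6. A match was found in 3.99% of 27025 promoters of all genes, in 4.93% of 3649 promoters of tested genes and in 19 of 46 promoters of the list's tested members (41.3%). Members separated upward held it in 9 of 22 promoters and the other members in 10 of 24. The shares were alike in separated and other members. The windows below are shown because they carry the match in 6 members with both Adar1-null libraries above both controls. Each reads 5′ to 3′ along the gene's strand, with the matched letters, or their reverse complement, in capitals. Overlapping matches run together. Isg15 lies at chr4:156200867-156200916 (minus strand), Ifit1 at chr19:34640765-34640814 (plus), Oas1a at chr5:120907516-120907565 (minus), Oas3 at chr5:120777705-120777754 (minus), Bst2 at chr8:71537573-71537622 (minus) and Stat2 at chr10:128270256-128270305 (plus).
Isg15: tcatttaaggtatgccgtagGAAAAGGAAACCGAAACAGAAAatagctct
Ifit1: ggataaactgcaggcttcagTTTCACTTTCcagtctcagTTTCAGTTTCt
Oas1a: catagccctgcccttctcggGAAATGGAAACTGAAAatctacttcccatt
Oas3: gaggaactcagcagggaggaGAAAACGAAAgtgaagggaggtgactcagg
Bst2: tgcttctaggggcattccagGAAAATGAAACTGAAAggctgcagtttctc
Stat2: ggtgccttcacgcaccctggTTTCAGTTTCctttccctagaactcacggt
The window of Oas1g is identical to that of Oas1a. Ifit1, an RNA-binding relative of Ifit2, had 142 and 171 CPM in S1 and S2, against 109 and 33.0 CPM in S3 and S4 (1.13 ± 0.46). Bst2, which tethers budding viruses to the cell, had 659 and 709.9 CPM in S1 and S2, against 511 and 225 CPM in S3 and S4 (0.88 ± 0.34). Stat2, part of the complex that binds the element, had 61.0 and 51.1 CPM in S1 and S2, against 48.2 and 8.25 CPM in S3 and S4 (0.95 ± 0.58). Such a match is a description of letters and not of binding.

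Of 17 tested sensors of double-stranded RNA and their partners, 14 had a positive change, 6 were separated upward and 1 downward, with a median of 0.37. The median was 0.22 without S4, 0.64 without S3, 0.62 without S1 and 0.11 in the Ly6c2-dominant cells (10 of 17 positive). Besides the Oas genes these included Dhx58, a helicase that tunes RNA sensing, at 78.1 and 107 CPM in S1 and S2, against 71.3 and 33.0 CPM in S3 and S4 (0.84 ± 0.36). Zbp1, a sensor of Z-form nucleic acid, had 796 and 1028 CPM in S1 and S2, against 719 and 355 CPM in S3 and S4 (0.75 ± 0.32). Ifih1 and Eif2ak2 overlapped between the groups. Of the receptor chains, Ifnar2 had 78.1 and 59.6 CPM in S1 and S2, against 94.3 and 86.6 CPM in S3 and S4 (-0.45 ± 0.27), and Ifnar1 overlapped.

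Of 24 tested genes induced by interferon gamma, 20 had a positive change with a median of 0.44, but only 2 were separated upward. The median was -0.06 without S2 (9 of 24 positive), 0.07 without S4 (13 of 25), 0.67 without S1 and 0.96 without S3. The 2 genes were Igtp, a GTPase that acts on pathogen vacuoles, at 149 and 160.5 CPM in S1 and S2, against 111 and 49.5 CPM in S3 and S4 (0.93 ± 0.32), and Casp1, the inflammasome protease, at 156 and 143 CPM in S1 and S2, against 113 and 63.9 CPM in S3 and S4 (0.73 ± 0.28). All 19 tested MHC class I genes had a positive change (median 0.36). Of these, 4 were separated upward (21.1%), near the 18.0% of all genes. Among the 4 was B2m, the light chain of class I, at 6328 and 7176 CPM in S1 and S2, against 6033 and 3747 CPM in S3 and S4 (0.45 ± 0.24). The class I median was 0.09 without S4, 0.13 without S2 (15 of 20 positive), 0.55 without S1 and 0.74 without S3. Of 11 tested MHC class II genes, 10 had a positive change (median 0.36), yet 0 were separated. The class II invariant chain Cd74 had 7561 and 9568 CPM in S1 and S2, against 10189 and 3075 CPM in S3 and S4 (0.35 ± 0.61). H2-Ab1, a class II beta chain, had 4721 and 5958 CPM in S1 and S2, against 6186 and 1505 CPM in S3 and S4 (0.46 ± 0.77). S3 was the highest library for both, and S4 the lowest. The median change of the class II list was -0.06 without S4, 0.16 without S2 and 1.26 without S3. Per cell, class II genes made up a median of 1.64% and 2.53% of UMIs in S1 and S2, against 2.59% and 0.375% in S3 and S4.

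**Figure D4:**
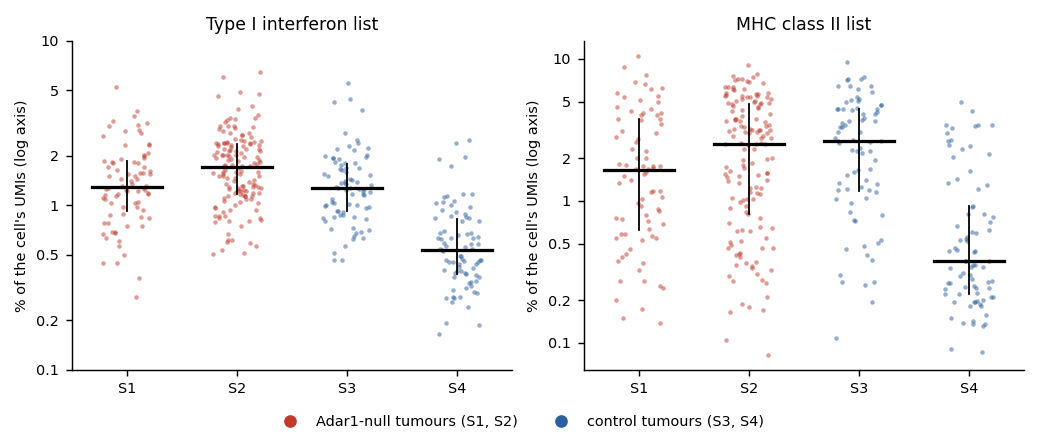
Share of each selected cell's UMIs (percent, log axis) from the type I interferon list (left) and the MHC class II list (right), by library, S1 and S2 (Adar1-null, red) left of S3 and S4 (control, blue). Points are cells, the thick bar is the median and the thin line the middle 50% of cells. All 64 and 15 members of the lists are counted here, while the medians in the text count the 59 and 11 tested. S4 cells are low in both lists, and S3 cells lie with S1 and S2.

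Chemokine ligands had no common direction. Of 17 tested, 8 had a positive change, 3 were separated upward and 6 downward, with a median of -0.20, which was 0.04 without S1, 0.10 without S3 and -0.41 without S2. The neutrophil attractants Cxcl1, Cxcl2 and Cxcl3 were separated downward. Cxcl2 had 1499 and 1440.5 CPM in S1 and S2, against 1995 and 3788 CPM in S3 and S4 (-1.01 ± 0.29). Cells with more Ly6c2 than Chil3 had 1515 and 1517 CPM in S1 and S2, against 2205 and 1827 in S3 and S4. Those with more Chil3 had 1329 and 620 CPM in S1 and S2, against 1563 and 4360 CPM in S3 and S4. In T cells Cxcl2 had 331 CPM in S4 and 32.0 to 50.4 CPM in the other libraries. Cxcl3 had 7.32 and 31.6 CPM in S1 and S2, against 145 and 402 CPM in S3 and S4 (-3.62 ± 0.81), but its UMIs came from few cells, 2.5% and 1.37% in S1 and S2, against 3.80% and 18.3% in S3 and S4. Cxcl1 had 4.88 and 19.4 CPM in S1 and S2, against 25.1 and 45.4 CPM in S3 and S4 (-1.33 ± 0.54). Ccl3, an inflammatory chemokine, had 554 and 611 CPM in S1 and S2, against 744 and 1006 CPM in S3 and S4 (-0.61 ± 0.21), and Ccl6 and Ccl9 were also separated downward. None of the 6 passed the test.

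Monocyte attractants were not arranged like that. Ccl8, a ligand of Ccr2 and other receptors, had 219.7 and 258 CPM in S1 and S2, against 151 and 109 CPM in S3 and S4 (0.86 ± 0.23), but its log2 change was -0.08 when the selection limits were applied to cells thinned to a common depth. Ccl2, the main ligand of Ccr2, differed little, with 3044 and 2891 CPM in S1 and S2, against 2858 and 2693 CPM in S3 and S4 (0.07 ± 0.18). The T cell attractant Cxcl10 had 1616 and 2424 CPM in S1 and S2, against 2238 and 1039 CPM in S3 and S4 (0.29 ± 0.38), and it overlapped. Of Ccl8, C1q-positive macrophages held 2911 CPM on average and the selected cells 184, and it was thus far more abundant in the macrophages. The part of free RNA in its level was not tested.

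Cytokines showed no common direction. Of 13 tested, 6 had a positive change, 4 were separated upward and 1 downward, with a median of -0.02, which ran from -0.19 without S2 to 0.30 without S1. Il1rn, which blocks the interleukin-1 receptor, had 271 and 369.5 CPM in S1 and S2, against 220.0 and 146 CPM in S3 and S4 (0.80 ± 0.25). Il1b, its counterpart, was at -0.02 ± 0.22. Osm, a cytokine of the interleukin-6 family, had 466 and 405 CPM in S1 and S2, against 507 and 674 CPM in S3 and S4 (-0.47 ± 0.21). Of 24 tested TNF and NF-kB response genes, 5 were separated in each direction (20.8%, against 18.0% of all genes upward and 15.2% downward). Ier3, an early response gene, had 471 and 593 CPM in S1 and S2, against 639 and 953 CPM in S3 and S4 (-0.60 ± 0.24). The survival gene Bcl2a1d, whose reads can be shared with its copies, had 119.6 and 137 CPM in S1 and S2, against 83.8 and 68.1 CPM in S3 and S4 (0.75 ± 0.25).

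Of 26 further classical monocyte genes tested, 8 had a positive change, 4 were separated upward and 6 downward, with a median of -0.31. The direction rested on S4: without S4 the median was 0.03, with 15 of 26 positive, and without S3 it was -0.54. Lyz2, the lysozyme of myeloid cells, lay close together in all libraries, at 16664 and 14747 CPM in S1 and S2, against 15091 and 16339 CPM in S3 and S4 (-0.03 ± 0.19). Vcan, a proteoglycan of classical monocytes, had 68.4 and 62.0 CPM in S1 and S2, against 69.2 and 239 CPM in S3 and S4 (-1.28 ± 0.63). Thbs1, which encodes thrombospondin, had 144 and 215 CPM in S1 and S2, against 239 and 563 CPM in S3 and S4 (-1.16 ± 0.46). Ms4a4c, a membrane protein of Ly6C-high monocytes that is also on the interferon list, had 1101 and 965 CPM in S1 and S2, against 736 and 365 CPM in S3 and S4 (0.89 ± 0.30). S3 lay nearer to S1 and S2 than to S4 in Vcan and Thbs1, and in Vcan it exceeded S1 by under 1 CPM.

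Nr4a1, a nuclear receptor that nonclassical monocytes need, is also an immediate-early gene. It had 208 and 227 CPM in S1 and S2, against 363 and 373 CPM in S3 and S4 (-0.78 ± 0.19), and here S3 and S4 lay close together. Of 8 tested nonclassical monocyte genes, 1 had a positive change and 3 were separated downward, among them Treml4, a receptor of nonclassical monocytes, at 12.2 and 14.6 CPM in S1 and S2, against 27.2 and 41.2 CPM in S3 and S4 (-1.33 ± 0.43), and the integrin chain Itgal at 48.8 and 49.8 CPM in S1 and S2, against 73.3 and 84.5 CPM in S3 and S4 (-0.70 ± 0.28). Id2, which blocks DNA binding of other factors, had 298 and 467 CPM in S1 and S2, against 576 and 821 CPM in S3 and S4 (-0.88 ± 0.26). Nr1h3, the liver X receptor alpha, had 41.5 and 54.7 CPM in S1 and S2, against 25.1 and 6.19 CPM in S3 and S4 (1.63 ± 0.48). Of 22 tested transcription factors of the step from monocyte to macrophage, 7 had a positive change, 3 were separated upward and 4 downward. Without S4, 11 of 23 such factors and 5 of 10 nonclassical monocyte genes had a positive change.

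Immediate-early genes, which tissue handling can also induce, had 20 members tested. Of these, 6 had a positive change, 2 were separated upward and 6 downward, with a median of -0.15. The sign turned without S4 (0.05, 11 of 20 positive) and in the Ly6c2-dominant cells (0.06), and without S3 the median was -0.31. Fosb had 78.1 and 94.8 CPM in S1 and S2, against 145 and 198 CPM in S3 and S4 (-0.99 ± 0.25). Egr1 had 103 and 151 CPM in S1 and S2, against 216 and 266 CPM in S3 and S4 (-0.92 ± 0.25). Fos, a partner in the AP-1 factor, had 2058 and 2046 CPM in S1 and S2, against 2511 and 2460 CPM in S3 and S4 (-0.30 ± 0.18). In Nr4a1, Egr1 and Fos both control libraries were higher, S3 as well as S4.

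Clec4d, a C-type lectin that detects mycobacterial glycolipid, had the lowest p among lower genes, with 190.4 and 159 CPM in S1 and S2, against 293 and 456 CPM in S3 and S4 (-1.14 ± 0.25). The other 2 separated pattern recognition genes were Tlr1 (0.84 ± 0.41) and Tlr13 (-0.53 ± 0.37). Prtn3, a protease of granulocyte and monocyte precursors, had 14.6 CPM in each Adar1-null library, against 37.7 and 88.7 CPM in S3 and S4 (-2.12 ± 0.48). Cd209a, a lectin of monocyte-derived and dendritic cells, had 24.4 and 66.9 CPM in S1 and S2, against 8.38 and 2.06 CPM in S3 and S4 (3.19 ± 0.70). It rested on few cells, with UMIs in 3.75% and 6.85% in S1 and S2, against 2.53% and 1.22% in S3 and S4. Dmkn, which encodes dermokine, a secreted protein of the epidermis, had 142 and 103 CPM in S1 and S2, against 46.1 and 57.7 CPM in S3 and S4 (1.18 ± 0.29).

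Of 25 tested hypoxia and glycolysis genes, 5 had a positive change with a median of -0.15. In each direction 3 were separated (12%, against 18.0% of all genes upward and 15.2% downward). Without S4 the median was 0.11, with 17 of 25 positive, and without S3 it was -0.32. Hilpda, a lipid-droplet protein induced by low oxygen, had 119.6 and 181 CPM in S1 and S2, against 258 and 668 CPM in S3 and S4 (-1.62 ± 0.53), and Gapdh had 527 and 528 CPM in S1 and S2, against 677 and 705 CPM in S3 and S4 (-0.41 ± 0.18). Of 32 oxidative phosphorylation genes, 15 had a positive change, with a median of -0.01, which was 0.24 without S3 (26 of 32 positive) and -0.09 without S4 (6 of 32). Of 24 tested lysosomal genes, 19 had a positive change, 7 were separated upward and 2 downward, with a median of 0.14. The median was 0.03 without S4 (13 of 24 positive), 0.33 without S1 and 0.52 without S3. The protease Ctsl was separated downward, with 92.8 and 182 CPM in S1 and S2, against 256 and 406 CPM in S3 and S4 (-1.24 ± 0.35). Fcgr4, an activating receptor for antibody, had 319.8 and 427 CPM in S1 and S2, against 275 and 192 CPM in S3 and S4 (0.67 ± 0.24). Of 20 tested lipid genes, 7 were separated upward, among them the sterol synthesis genes Fdps (0.65 ± 0.34), Idi1 (0.62 ± 0.33) and Sqle (0.56 ± 0.31), and 2 downward. Growth factor and cytokine receptors had 5 of 19 positive changes and 5 separated downward, among them Ifngr1, a chain of the interferon gamma receptor, at 225 and 154 CPM in S1 and S2, against 249 and 346 CPM in S3 and S4 (-0.70 ± 0.26). Without S4, 10 of 20 receptors and 12 of 22 lipid genes had a positive change.

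**Figure D5:**
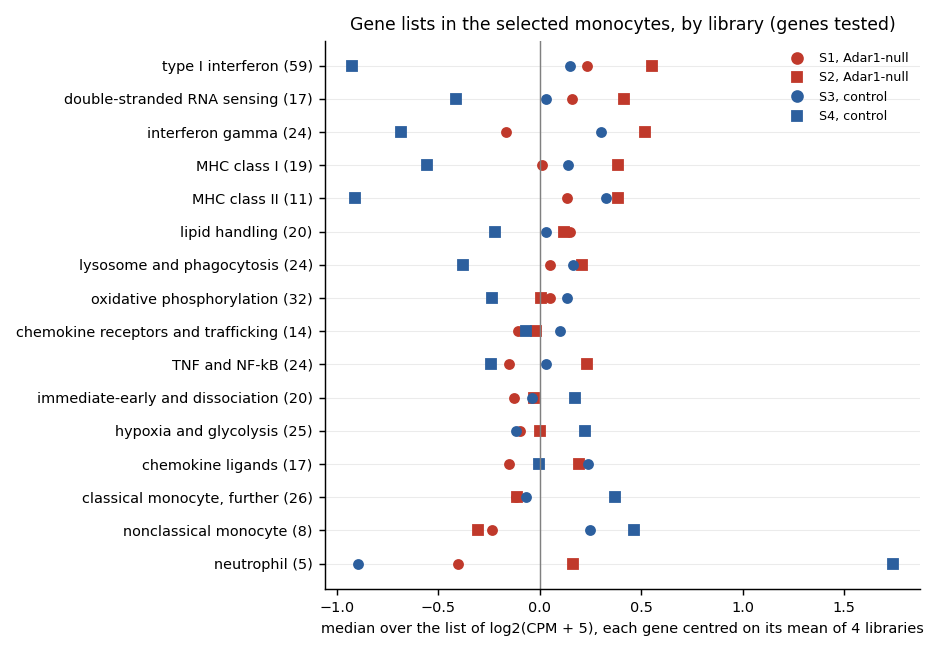
Median over each gene list of log2(CPM + 5), with every gene centred on its mean of the 4 libraries, for S1 and S2 (Adar1-null, red circle and square) and S3 and S4 (control, blue circle and square). The number of genes tested stands beside each name. In the interferon list S1 and S3 lie close together, and S2 and S4 lie at the ends. Of the lists shown, type I interferon, double-stranded RNA sensing and lipid handling have both Adar1-null libraries to the right of both controls, as do the macrophage and cell cycle lists, which are not shown. The nonclassical and classical monocyte lists have both to the left, as do the growth factor receptor and pattern recognition lists, not shown.

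Neutrophil transcripts were highest in S4. Neutrophil markers summed to 105 and 201 CPM in S1 and S2, against 90.1 and 899 CPM in S3 and S4, with Camp and Ngp at 0 in every library among 13 markers. In S4, S100a8 had 313 CPM and S100a9 177 CPM, against at most 30.4 CPM of either in the other libraries. These UMIs were concentrated in few cells. In S4, 6 of 82 selected cells held 10 or more UMIs of the 2 genes together, among them cells with 59 and 65. In S2, 1 cell did, with 41. T cells of S4 held 46.3 CPM of S100a8 and 36.5 CPM of S100a9, against under 1 CPM in T cells of S1, S2 and S3. Lcn2 and G0s2, which were chosen after their values were seen and are abundant in neutrophils, had 148 and 86.6 CPM in S4, and 0 to 3.65 CPM in the other libraries. Saa3, an acute-phase protein also chosen in this way, had 2.44 and 7.29 CPM in S1 and S2, against 35.6 and 369 CPM in S3 and S4. T cells of S1, however, held 282 CPM of Saa3 and 60.2 CPM of Lcn2, so these 2 are not confined to S4. Leaving out 29 cells with transcripts of neutrophils, dendritic cells or killer cells gave a median log2 change of the interferon list of 0.70 and left the number of called genes at 0 (edgeR).

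The 23 macrophage markers, which include genes of the rule, summed to 6108 and 5929.7 CPM in S1 and S2, against 5306 and 8086 CPM in S3 and S4, led by Apoe, a lipid carrier, with 2217 and 1128 CPM in S1 and S2, against 1136 and 4995 CPM in S3 and S4. Apoe in T cells was 222 and 40.4 CPM in S1 and S2, against 87.8 and 501 CPM in S3 and S4. Ms4a7, a macrophage membrane protein, had 159 and 129 CPM in S1 and S2, against 73.3 and 20.6 CPM in S3 and S4 (1.58 ± 0.45). The 10 dendritic cell markers summed to 107 and 177 CPM in S1 and S2, against 172 and 43.3 CPM in S3 and S4. T and natural killer cell markers summed to 61.0 and 47.4 CPM in S1 and S2, against 21.0 and 28.9 CPM in S3 and S4. Melanocyte markers summed to 95.2 and 58.3 CPM in S1 and S2, against 35.6 and 55.7 CPM in S3 and S4, and B cell markers to 9.77 and 6.08 CPM in S1 and S2, against 18.9 and 16.5 CPM in S3 and S4. Fibroblast markers lay between 4.86 and 12.4 CPM, and erythroid markers were at 0 outside S4, which had 53.6 CPM.

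The selected cells were set beside a pair of C1q-positive classes. One holds the 261 cells that meet the same limits but have more than 10 C1q UMIs. The other holds 1059 C1q-positive macrophages with fewer than 3 UMIs of Ly6c2 and Chil3. The classes are cut by the same transcripts, so these levels are descriptions with no test. Averaged over the 4 libraries, Hp had 362 CPM in the selected cells, 68.0 in the first class and 4.07 in the macrophages. Ifitm6, a membrane protein of the Ifitm family, had 364, 74.0 and 12.02 CPM. The antiprotease Slpi had 258.5, 66.7 and 12.5 CPM, and Dmkn 87.2, 8.14 and 2.14 CPM. Vcan had 109.7 CPM in the selected cells against 4.63 in the macrophages. Each of Hp, Ifitm6, Slpi and Dmkn was lower in the first class than in the selected cells, and lower again in the macrophages.

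Other transcripts stood higher in the macrophages. The adhesion molecules Vcam1 and Cadm1 had 6.65 and 4.01 CPM in the selected cells, against 164 and 107 CPM in the macrophages. Gdf15, a stress-induced cytokine, had 5.85 against 119 CPM, and Retnla, a secreted product of alternatively activated macrophages, 8.81 against 175 CPM. Pf4, a chemokine, had 92.8 CPM in the selected cells and 441 CPM in C1q-positive Ly6c2/Chil3 cells, and the surface receptor Cd72 had 38.4 and 178 CPM. All 64 members of the type I interferon list, tested or not, were summed here. They had 15121 and 18393 CPM in selected cells of S1 and S2 and 14119 and 6617 CPM in those of S3 and S4. Their mean sum was 12179 CPM in C1q-positive Ly6c2/Chil3 cells and 6924 CPM in the macrophages.

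The ends of the range of C1q counts differed alike in every library. Plac8 in the 171 selected cells with no C1q UMI had 7833 and 8091 CPM in S1 and S2, against 6849.7 and 4282 CPM in S3 and S4. In the 198 cells that met the other limits but held more than 30 C1q UMIs, Plac8 had 1979 and 2821 CPM in S1 and S2, against 2692 and 1649 CPM in S3 and S4. Hp had 324 and 346 CPM in S1 and S2, against 373 and 723 CPM in S3 and S4, in the cells with none, and in those with more than 30 it had 5.43 and 9.17 CPM in S1 and S2, against 28.7 and 212 CPM in S3 and S4. Both were thus lower at the C1q-high end in each library. MHC class II genes summed to 23338 and 26167 CPM in S1 and S2, against 30971 and 9537 CPM in S3 and S4, in the cells with none, and to 37938 and 39676 CPM in S1 and S2, against 36470.5 and 18144 CPM in S3 and S4, in those with more than 30. The bins between were not ordered in every library, with 7 to 62 cells each: Hp in S4, for example, had 610.4, 902 and 70.2 CPM at 1 to 3, 4 to 10 and 11 to 30 C1q UMIs.

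Whether the group difference differed between the selected cells and other classes was tested as an interaction. Against the C1q-positive Ly6c2/Chil3 cells, 0 of 5179 genes (0%) differed in their change by edgeR's quasi-likelihood test with the library as a block, with 133 higher and 86 lower at an unadjusted p under 0.05 and a lowest adjusted p of 0.270. DESeq2 was not run for this design. The lowest p values among positive differences belonged to Hp (1.74 ± 0.34), Slpi (2.21 ± 0.44), Fn1 (1.38 ± 0.29), Cd209a (6.30 ± 1.36) and Mettl10 (2.83 ± 0.62), given as the log2 change in selected cells less that in the other class. Hp was at -1.14 ± 0.38 in selected cells and at -2.86 ± 0.51 in the other class. Cd209a was near the floor in the other class. At 11 to 30 C1q UMIs it had 11.1 and 0 CPM in S1 and S2, against 81.2 (11 cells) and 0 CPM in S3 and S4. At more than 30 it had 0 CPM in S1, S2 and S3 and 3.86 CPM in S4. Without S3, 11 genes passed, without S4 5, and without S1 or S2 0.

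Against the C1q-positive macrophages, 0 of 8062 genes (0%) differed in their change, with 144 higher and 130 lower at an unadjusted p under 0.05 and a lowest adjusted p of 0.577, again by edgeR's quasi-likelihood test. That gene was Ifit2, with a log2 change of 2.38 ± 0.39 in selected cells and 0.19 ± 0.28 in the macrophages (difference 2.16 ± 0.39). Tmem140, a membrane protein, differed by 2.08 ± 0.51, and Cd9, a tetraspanin, by -1.72 ± 0.42. Without S3, 43 genes passed, without S1 10, without S2 9 and without S4 1. The type I interferon list had a median log2 change of 0.69 in selected cells, 0.46 in C1q-positive Ly6c2/Chil3 cells (54 of 58 positive) and 0.56 in the macrophages (58 of 61 positive). The 3 classes come from the same 4 libraries, so these medians are not independent of each other.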

How the data were processed

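The deposited values are UMI counts per gene and cell barcode in 1 matrix of 27998 genes and 8838 barcodes, whose names carry the library. The authors processed reads with Cell Ranger and Seurat 2.2.0 on mm10, per the submitters' processing notes. The Cell Ranger version, gene annotation and filters on cells are not stated in any source used here. The limits of 500 genes and 10% mitochondrial UMIs removed 161 barcodes. Doublets were scored with Scrublet in scanpy 1.11.5 and kept unless stated. Counts were summed over the selected cells of each library, and 409618 to 822634 UMIs per library limit the precision.

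The sums were tested with edgeR 4.0.16 (quasi-likelihood test, TMM scaling, filterByExpr, R 4.3.3), with Benjamini-Hochberg adjustment over all genes tested, and DESeq2 1.42.0 was the alternative tool. The 18 genes of the selection rule stayed in the fit and its adjustment, but none of their results is counted or printed. An SE is the log2 change divided by the square root of the F statistic. Changes were compared between cell classes by an interaction term with the library as a block, and shares by exact permutation over libraries. A gene is called separated where both Adar1-null libraries lie on 1 side of both control libraries in CPM. Scripts were tested on simulated data. The cells and gene lists were chosen with earlier results of these data known. Genes were named by a fixed rule (the selection genes and markers, the lowest p values among separated genes and in each interaction, up to 4 separated or else abundant members of each list, and the largest ratios between classes), and exceptions are stated. Promoter stretches are RefSeq's for GRCm38.p6, and gene positions are GENCODE M21's for GRCm38. Alternatives covered scaling, filters, doublets, selection limits, cell numbers, other cell types and each library left out. Results for some genes are not reported here.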

Additional observations from a re-analysis of the deposited data

How the results depend on the processing

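The count of called genes between Adar1-null and control monocytes (0) was also 0 with DESeq2, with its size factors, without doublets, under stricter or thinned selection limits, without cells of other types, with equal cell numbers and in the Ly6c2-dominant cells, an alternative chosen after seeing the data. It was 36 with no filter on low counts and 0 to 303 with 1 library left out. The count against C1q-positive Ly6c2/Chil3 cells (0) was 9 with no filter, 3 with equal cell numbers and 0 to 11 with 1 library left out. Against C1q-positive macrophages (0) it was 6 with no filter and 1 to 43 with 1 library left out. The median of the type I interferon list ran between 0.24 and 1.45, and that of the MHC class II list between -0.058 and 1.26, with 1 library left out. The difference in the monocyte share of all kept cells ran between 0.572 and 3.98 points, and that in the monocyte share of Csf1r-positive cells between 3.50 and 14.9 points. Of 1397 recomputed values of 109 named genes, 1292 kept their direction and side, 102 passed the test only under the alternative, 57 of them without S3, and 3 reversed: Ccl8 to -0.083 with limits on thinned cells, and Ndufs6 to -0.055 and Hsp90b1 to -0.16 in Ly6c2-dominant cells. The cause of these shifts was not tested. No paired analysis was possible because the library names in the matrix carry no replicate numbers. Counts of 79 to 146 cells per library limit what could be detected, and fewer cells with a transcript cannot be told apart from less of it per cell in the summed counts.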
